A study of Mus musculus with 12 samples.

Results

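The chaperones and folding factors of the endoplasmic reticulum described here are the products of 10 mouse genes: Hspa5, Hsp90b1, Hyou1, Dnajb9, Dnajb11, Sdf2l1, Pdia4, Creld2, Manf and Herpud1. They were taken by symbol, as 17 probe sets that name exactly 1 of these genes, out of 34958 probe sets with 1 gene symbol and 18194 genes on the array. Expression was read on 12 Affymetrix arrays from BNL CL.2 cells, a line of mouse liver origin, after 24 h under 4 conditions with 3 arrays each. In RAW_FAC, the liver cells shared the culture with RAW 264.7 cells, a mouse macrophage line held in an insert, and received 100 micromolar ferric ammonium citrate (FAC), a soluble iron salt. RAW had the macrophages without the salt, and FAC had the salt without the macrophages. The group alone had neither, and its insert held more BNL CL.2 cells. No group carried a genetic change, all 12 arrays come from this 1 line, and each array was hybridised with total RNA of BNL CL.2 cells per the labels. The sample titles number the replicates 1, 2 and 3 in every group, without saying what a number stands for.

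The endoplasmic reticulum is the compartment in which secreted and membrane proteins fold, and liver cells secrete much protein. Its central chaperone is the Hsp70 protein BiP, encoded by Hspa5, whose cycle of binding and release is set by J-domain partners and nucleotide exchange factors. When unfolded protein builds up, the sensors encoded by Ern1, Eif2ak3 and Atf6 set off the unfolded protein response, in which the transcription factors ATF6 and XBP1 raise chaperone genes through short promoter elements. The members belong to that target set.

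The promoters are shown for those elements, except that of Sdf2l1, which held none of those searched and is given for its iron difference. They are the 250 bases before the start of each gene, 5′ to 3′ on the gene's strand, from RefSeq on build GRCm38.p6, which had an entry for 8 of the 10 genes. Capitals mark the endoplasmic reticulum stress element (ERSE: CCAAT, then any 9 bases, then CCACG) or its shorter form (ERSE-II: ATTGG, then any 1 base, then CCACG), searched on both strands. The regions are chr2:34771840-34772089 (plus strand) for Hspa5, chr10:86705445-86705694 (minus) for Hsp90b1, chr15:88819396-88819645 (plus) for Creld2, chr8:94386179-94386428 (plus) for Herpud1 and chr16:17132384-17132633 (minus) for Sdf2l1. For Dnajb11 only the match with 8 bases on each side is given, chr16:22857844-22857870 (plus).
Hspa5: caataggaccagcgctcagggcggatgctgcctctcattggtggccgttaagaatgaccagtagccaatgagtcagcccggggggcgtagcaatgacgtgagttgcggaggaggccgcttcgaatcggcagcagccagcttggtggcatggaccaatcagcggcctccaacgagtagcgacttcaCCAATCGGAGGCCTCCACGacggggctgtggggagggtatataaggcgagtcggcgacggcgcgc
Hsp90b1: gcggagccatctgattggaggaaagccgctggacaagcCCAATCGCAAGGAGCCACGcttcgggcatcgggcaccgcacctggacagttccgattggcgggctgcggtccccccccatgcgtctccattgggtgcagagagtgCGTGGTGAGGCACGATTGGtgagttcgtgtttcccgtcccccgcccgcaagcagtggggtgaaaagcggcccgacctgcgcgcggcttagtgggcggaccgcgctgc
Creld2: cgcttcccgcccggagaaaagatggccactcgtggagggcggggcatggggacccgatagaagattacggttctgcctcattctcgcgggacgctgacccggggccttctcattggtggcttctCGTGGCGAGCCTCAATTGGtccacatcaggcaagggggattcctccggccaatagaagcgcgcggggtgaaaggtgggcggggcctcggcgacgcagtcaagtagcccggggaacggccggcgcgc
Herpud1: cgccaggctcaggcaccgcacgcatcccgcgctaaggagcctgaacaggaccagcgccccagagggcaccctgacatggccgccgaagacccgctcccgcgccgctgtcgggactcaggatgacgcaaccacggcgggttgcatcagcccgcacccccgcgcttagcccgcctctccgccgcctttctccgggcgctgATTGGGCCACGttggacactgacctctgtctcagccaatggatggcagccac
Dnajb11: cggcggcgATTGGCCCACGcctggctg
Sdf2l1: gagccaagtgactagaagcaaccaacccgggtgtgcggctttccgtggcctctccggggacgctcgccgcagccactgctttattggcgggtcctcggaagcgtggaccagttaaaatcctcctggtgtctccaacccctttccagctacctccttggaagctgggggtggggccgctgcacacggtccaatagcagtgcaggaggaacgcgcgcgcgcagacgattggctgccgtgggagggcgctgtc

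In these windows, from 250 bases before to 50 after the start, ERSE was found for Hspa5, Hsp90b1 and Creld2. The match began 65 bases before the start in Hspa5, and in Creld2 it lay on the opposite strand, 126 bases before the start. Hsp90b1 had a match at 212 bases and another, on the opposite strand, at 107 bases. ERSE-II was found for Herpud1, 52 bases before the start, and for Dnajb11, 8 bases past it. ERSE was present in 39 of 32851 mouse promoters of that length (0.119%) and ERSE-II in 12 (0.0365%). The element TGACGTGG (UPRE), searched on both strands as well, was present in 222 promoters (0.676%) and in 0 of the 8 members. Sdf2l1, whose sequence is given because it had the largest difference with iron, held none of the 3 motifs in this window, which says only that these letters are not there.

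Signals are on the log2 scale of the RMA summary the authors deposited, where a difference of 1 is a factor of 2, and levels of different genes are not set against each other. Array medians were 5.63 to 5.68. A gene is called at a Benjamini-Hochberg adjusted p under 0.05 over all 18194 genes in limma, two-sided. The fit was made without and with a replicate block, an additive term for the replicate number. Tfrc, the transferrin receptor gene that falls when cells hold iron, fell by 1.22 over both iron comparisons (limma adjusted p = 0.0398, and 0.00066 with the block) and in 6 of 6 same-number pairs. With 1 array left out its call was kept in 3 of 12 fits without the block and in 12 of 12 with it. Of 12 macrophage markers on the array, 4 exceeded the array median, and their mean log2 signal was 5.77 to 5.79 in RAW_FAC, 5.75 to 5.87 in RAW, 5.71 to 5.77 in FAC and 5.72 to 5.79 in alone. Among them Itgam (3.49 to 3.98), Ptprc (3.32 to 3.72) and Adgre1 (4.74 to 5.21) lay below the array median on all 12 arrays, and Cd14 was high in every group (11.90 to 12.19). Of 9 hepatocyte markers on the array 6 exceeded the median, with Hnf4a at 10.22 to 10.75, while Alb lay at 5.02 to 5.38, below it. All 7 epithelial markers did (Krt8 at 14.20 to 14.34), as did 2 of 8 fibroblast markers. The array medians cover all probe sets, while a gene is read from its brightest, so most genes exceed them. The median of the gene means was 6.82. Of the hepatocyte markers only Afp, Apob and Hnf4a exceeded that value. The epithelial marker Sox9 (5.98 to 6.34) and the fibroblast marker Acta2 (6.08 to 6.42) lay below it.

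In the sentences that follow, the 3 values of a group are those of replicates 1, 2 and 3. Hspa5 encodes BiP. Its signal was 13.57, 14.15 and 13.93 in RAW_FAC, 13.26, 13.77 and 13.75 in RAW, 13.54, 14.14 and 13.91 in FAC, and 13.25, 13.85 and 13.78 in alone. The arrays of replicate 1 were the lowest in each group, and within each number both arrays with iron exceeded both without it. Hsp90b1 encodes the Hsp90 chaperone of the compartment, which folds Toll-like receptors and integrins. It gave 13.24, 13.58 and 13.46 in RAW_FAC, 13.11, 13.28 and 13.42 in RAW, 13.34, 13.49 and 13.47 in FAC, and 13.00, 13.45 and 13.38 in alone. Its groups overlapped, and the iron and no-iron arrays of replicate 3 were close. Hyou1, a large Hsp70-like protein that speeds nucleotide exchange on BiP, gave 10.53, 11.27 and 11.02 in RAW_FAC, 10.22, 10.63 and 10.78 in RAW, 10.55, 11.22 and 10.97 in FAC, and 10.31, 10.73 and 10.87 in alone. Its highest arrays were those of replicate 2 with iron.

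Dnajb9 and Dnajb11 encode J-domain partners of BiP, and Sdf2l1 a partner of Dnajb11 that helps to keep clients from aggregating. Dnajb9 gave 9.71, 10.46 and 9.87 in RAW_FAC, 9.54, 10.06 and 9.73 in RAW, 9.65, 10.50 and 9.93 in FAC, and 9.39, 10.20 and 9.76 in alone. Replicate 2 stood above the others in all 4 groups, so that an array of replicate 2 without iron was higher than those of replicates 1 and 3 with it. Dnajb11 gave 11.35, 11.72 and 11.48 in RAW_FAC, 11.09, 11.38 and 11.39 in RAW, 11.31, 11.78 and 11.53 in FAC, and 11.24, 11.43 and 11.44 in alone. Sdf2l1 gave 10.66, 11.88 and 11.40 in RAW_FAC, 10.15, 10.79 and 11.07 in RAW, 10.70, 11.88 and 11.48 in FAC, and 10.17, 11.03 and 11.09 in alone. The groups of both genes overlapped, since replicate 1 with iron lay below replicates 2 and 3 without it.

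Pdia4 is a protein disulfide isomerase, which forms and rearranges disulfide bonds. It gave 10.74, 11.28 and 11.06 in RAW_FAC, 10.29, 10.68 and 10.86 in RAW, 10.71, 11.35 and 10.99 in FAC, and 10.46, 10.81 and 10.88 in alone. Creld2 and Manf encode small proteins of the secretory pathway that are made under endoplasmic reticulum stress, and Manf binds BiP. Creld2 gave 10.91, 12.02 and 11.58 in RAW_FAC, 10.47, 11.13 and 11.19 in RAW, 10.85, 12.02 and 11.56 in FAC, and 10.53, 11.33 and 11.26 in alone. Manf gave 12.36, 13.12 and 12.85 in RAW_FAC, 12.19, 12.63 and 12.65 in RAW, 12.38, 13.13 and 12.83 in FAC, and 12.15, 12.71 and 12.66 in alone. In both genes the RAW_FAC and FAC arrays of 1 number were nearly equal. Herpud1 is a membrane protein that takes part in the degradation of misfolded proteins, and it gave 9.77, 11.14 and 10.37 in RAW_FAC, 9.38, 10.26 and 10.10 in RAW, 9.75, 11.16 and 10.59 in FAC, and 9.31, 10.46 and 10.27 in alone. It had the widest spread of the 10 within a group, with an SD of up to 0.71 in FAC, and Hsp90b1 had the narrowest, 0.08 in FAC (n = 3 arrays).

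**Figure D1:**
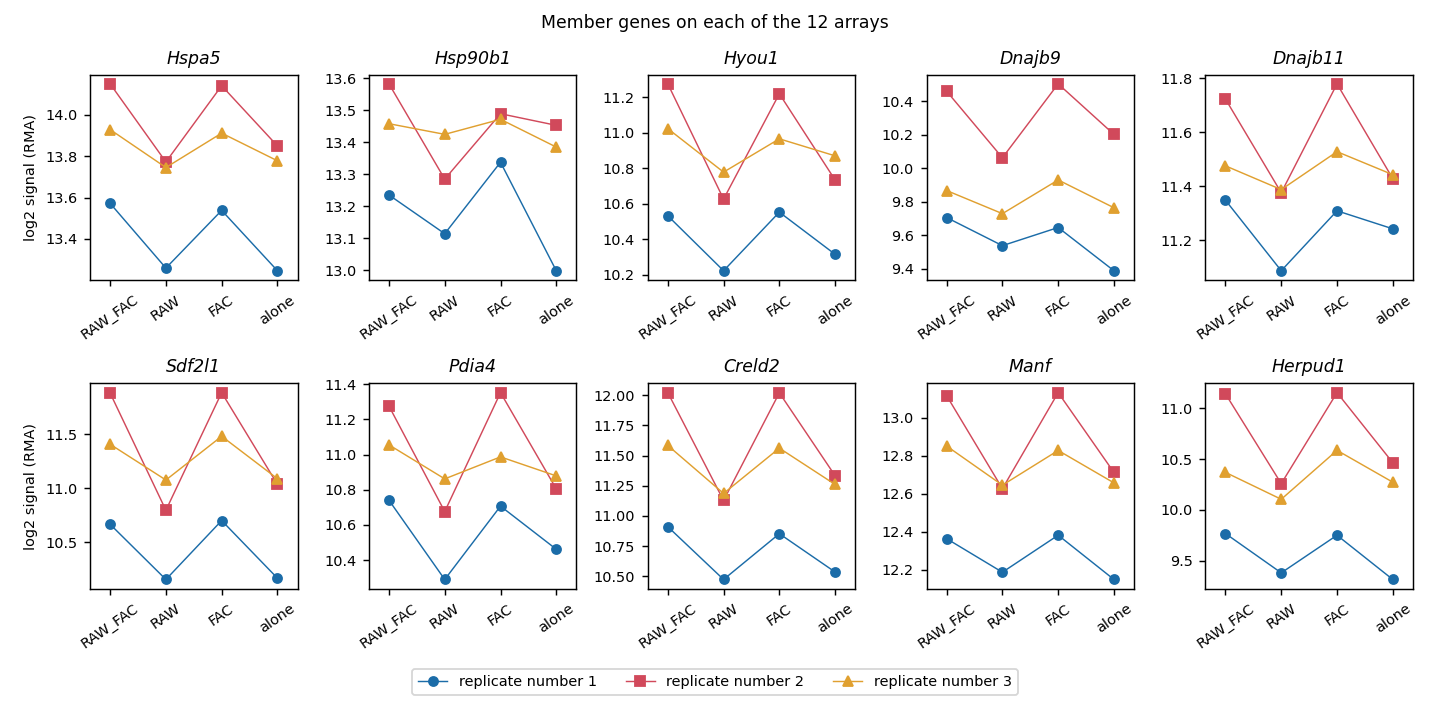
Log2 signal (vertical axis, 1 scale per panel, not starting at 0) of each of the 10 genes on the 12 arrays, by group, with lines that join arrays of the same replicate number. Replicate 1 is the lowest of the 3 in every panel and group, and along each line the RAW_FAC and FAC points lie above the RAW and alone points.

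The 10 genes shared 1 profile over the arrays. The Pearson correlation of a member with the mean of the other 9, over 12 arrays, was lowest for Dnajb9 (0.884) and Hsp90b1 (0.912) and highest for Creld2 (0.996) and Manf (0.994). These correlations describe arrays that share a replicate number and a condition, and carry no test. The replicate number took 51.0% (Pdia4) to 83.8% (Dnajb9) of a member's sum of squares over the 12 arrays, with a median of 65.3%, against a median of 26.9% over all genes. The iron salt took 12.7% (Dnajb9) to 37.4% (Pdia4), with a median of 24.7%, against 5.69% over all genes. The macrophages took 0.0117% (Hspa5) to 2.31% (Dnajb11), with a median of 0.237%, against 3.90% over all genes. What neither group nor number accounted for was 2.07% (Hspa5) to 14.6% (Hsp90b1), against a median of 41.1% over all genes.

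**Figure D2:**
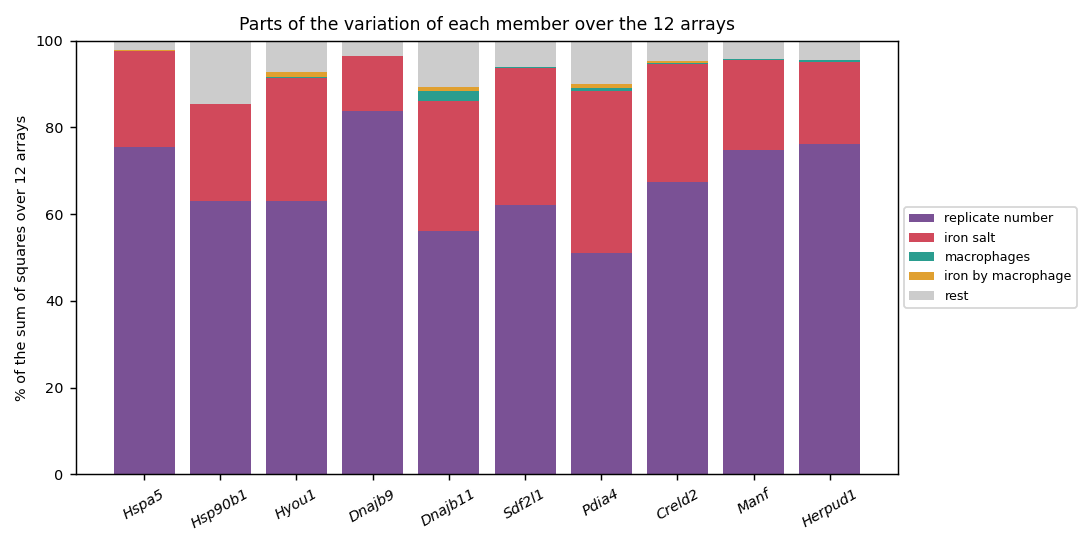
Share of each member's sum of squares over the 12 arrays (vertical axis, %) taken by the replicate number, the iron salt, the macrophages, their interaction and the rest. The replicate number is the largest part of every bar, from 51.0% in Pdia4 to 83.8% in Dnajb9.

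The dependence on the replicate number was tested in the fit with a mean per group. The F test of the number called 10 of 10 members, where it called 10.6% of all genes (1926), with adjusted p from 0.000296 (Herpud1) to 0.0233 (Hsp90b1) in limma. Averaged over the 4 groups, replicate 2 exceeded replicate 1 by 0.28 ± 0.06 (Hsp90b1) to 1.20 ± 0.10 (Herpud1), with Sdf2l1 at 0.98 ± 0.11 and Creld2 at 0.93 ± 0.09 (SE). The median over the members was 0.60, and that over all genes -0.003. This difference was called in 10 of 10 members (3.44% of genes). Replicate 3 exceeded replicate 1 by 0.21 (Dnajb11) to 0.84 (Sdf2l1), called in 9 of 10 (4.58%), with Dnajb11 at an adjusted p of 0.052 in limma. Replicate 2 exceeded replicate 3 by 0.02 (Hsp90b1) to 0.48 (Dnajb9), called in Dnajb9 and Herpud1 (1.89%).

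Within the groups, replicate 1 was the lowest in 4 of 4 groups for 10 of 10 members (6.03% of genes). Replicate 2 was the highest in 4 of 4 groups for 3 members, Hspa5, Dnajb9 and Herpud1 (4.66%). In the others the highest number was not the same in all groups. In RAW_FAC and FAC, replicate 2 was the highest for all 10, while in RAW replicate 3 was the highest for 7 and in alone for 4 (Hyou1, Dnajb11, Sdf2l1 and Pdia4). How many of all genes have these orders was not counted, so they are not read as a trait of the members. The mean of the 10 members, each centred on its own mean over the 12 arrays, was -0.54 to -0.23 on the 4 arrays of replicate 1, -0.05 to 0.55 on those of replicate 2 and -0.02 to 0.21 on those of replicate 3. Of the measures of RNA quality, that from Gapdh stood at separate levels in the numbers, lowest in replicate 2 and highest in replicate 3, while that from Actb overlapped. The 3′ minus 5′ log2 signal of Gapdh was -0.02 to 0.01 in replicate 1, -0.05 to -0.03 in replicate 2 and 0.06 to 0.11 in replicate 3, and that of Actb was 0.36 to 0.41, 0.32 to 0.38 and 0.36 to 0.42 in the same order of numbers. Among 9 hepatocyte markers, Afp, a fetal liver protein, and Apob, a lipoprotein component, were also lowest in replicate 1 in 4 of 4 groups, and the liver transcription factor gene Hnf4a was highest there. Apob lay at 11.08 to 11.29 in replicate 1, 11.96 to 12.19 in replicate 2 and 12.07 to 12.38 in replicate 3. The mean of the 9 markers was 6.96 to 7.06, 7.14 to 7.19 and 7.19 to 7.29 in the same order. The F test of the number called 3 of them, Afp, Apob and Hnf4a. It did not call Alb, Ttr, Apoa1, Tat, Cyp2e1 or Fgb (limma adjusted p 0.246 to 0.933). The order of the mean therefore does not hold for the list as a set. The part of these measures in the members' order was not tested. By contrast with the members, the list of cytosolic and mitochondrial chaperones had 0 of 14 genes called by the same F test. Its median difference between replicates 2 and 1 was 0.01. This is a side-by-side count with no test of the difference between the lists, which were chosen with earlier results of these data known.

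**Figure D3:**
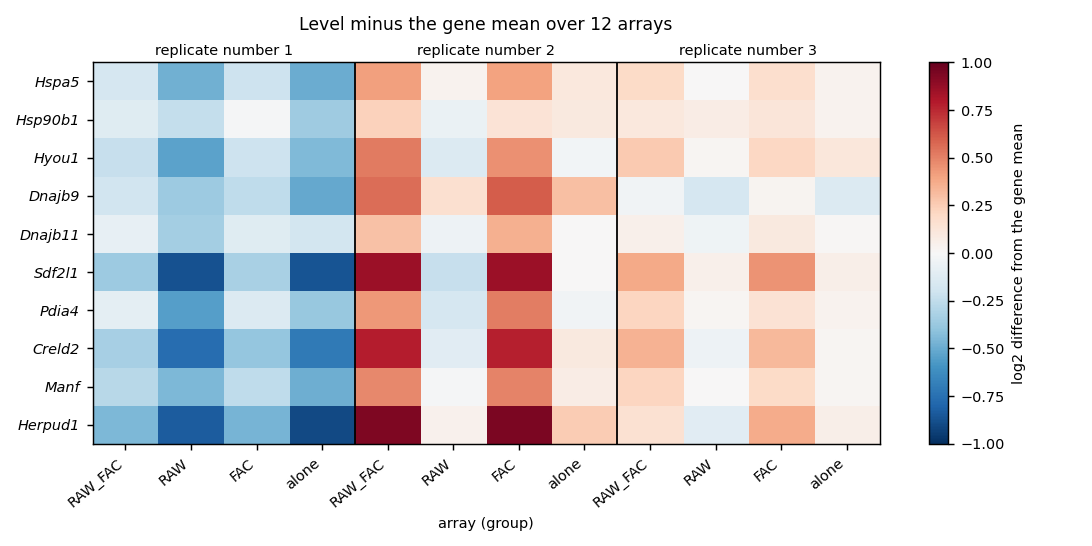
Log2 signal minus the gene's mean over 12 arrays (colour) for the 10 members (rows) on each array (columns), ordered by replicate number and, within a number, by group. The columns of replicate 1 are below the mean on every tile, and within each number the RAW_FAC and FAC columns are higher than the RAW and alone columns.

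The question of the iron comparisons was whether the salt moved these genes in the liver cells, with and without macrophages. All 10 members were higher with iron in every same-number pair of both comparisons, by 0.15 (Hsp90b1) to 0.62 (Sdf2l1) on the mean of the 2. In FAC against alone the median log2 difference was 0.27, with a range of 0.15 (Hsp90b1) to 0.59 (Sdf2l1), and the median over all genes was -0.004. In RAW_FAC against RAW the median was 0.35, with a range of 0.15 (Hsp90b1) to 0.64 (Sdf2l1). In RAW_FAC against alone it was 0.29, from 0.14 (Dnajb11) to 0.55 (Sdf2l1). Each array reads the RNA of a whole culture, so a change in a share of the cells and a change in each cell cannot be told apart. The count of members higher in 3 of 3 pairs was 10 of 10 in FAC against alone (13.4% of genes), in RAW_FAC against RAW (15.1%) and in RAW_FAC against alone (15.4%). Over both iron comparisons, 10 of 10 were higher in 6 of 6 pairs (4.14% of genes). Of the 9 hepatocyte markers, Afp was higher in 6 of 6 pairs, by 0.18 to 0.75, and called with the block (limma adjusted p = 0.0168), while Hnf4a was lower in 6 of 6 pairs and not called. Their part in the members' difference was not tested. These comparisons share arrays, RAW_FAC in 2 of them and alone in another 2.

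In all 10 members the difference between replicates 2 and 1 was wider than the difference with iron, and the groups overlapped. The 3 arrays with iron exceeded the 3 without it in 0 of 10 members in FAC against alone (3.74% of genes), in RAW_FAC against RAW (4.48%) and in RAW_FAC against alone (4.67%). Sdf2l1, for example, averaged 11.32 ± 0.61 in RAW_FAC, 10.67 ± 0.47 in RAW, 11.35 ± 0.60 in FAC and 10.76 ± 0.52 in alone (SD, n = 3 arrays). Without the block, limma called 0 of 10 members higher in FAC against alone (0% of genes, smallest member adjusted p = 0.999994), in RAW_FAC against RAW (0%, 0.849) and in RAW_FAC against alone (0%, 0.956). At an unadjusted p under 0.05 the counts were 0 of 10 (3.03%), 1 of 10, Pdia4 (5.71%), and 0 of 10 (4.88%). With the replicate block the standard errors of a single comparison fell to between 0.06 and 0.13, against 0.12 to 0.41 without it. The block called 0 of 10 members in each of the 3 (0.022%, 0.0605% and 0.143% of genes), with smallest adjusted p of 0.261, 0.0749 and 0.133. At an unadjusted p under 0.05 it counted 9 (6.57%), 9 (11.2%) and 8 (10.1%). The 95% intervals with the block reached from -0.002 (Hsp90b1) to 0.87 (Sdf2l1) in FAC against alone, and from -0.006 (Hsp90b1) to 0.92 (Sdf2l1) in RAW_FAC against RAW.

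The mean of the 2 iron comparisons rests on 6 pairs. Sdf2l1 was higher by 0.62 ± 0.09 (SE with the block, 1.53-fold), Creld2 by 0.51 ± 0.07 (1.42-fold), Herpud1 by 0.50 ± 0.08 (1.41-fold), Pdia4 by 0.36 ± 0.07 (1.28-fold) and Hyou1 by 0.34 ± 0.06 (1.26-fold). Manf was higher by 0.28 ± 0.05, Hspa5 by 0.27 ± 0.04, Dnajb9 by 0.24 ± 0.05, Dnajb11 by 0.20 ± 0.05 and Hsp90b1 by 0.15 ± 0.05 (1.11-fold). The median was 0.31, and that over all genes -0.002. Ordered by this difference, the members held ranks 11 (Sdf2l1) to 615 (Hsp90b1) of 18194 genes. Without the block 0 of 10 were called (0% of genes higher), and 5 of 10 had an unadjusted p under 0.05 (6.51%). With the block 7 of 10 were called (0.638% of genes higher): Creld2 (adjusted p = 0.0132), Sdf2l1 (0.0137), Hspa5 (0.0162), Herpud1 (0.0207), Manf (0.0357), Pdia4 (0.0368) and Hyou1 (0.0368). Dnajb9 (0.0687), Dnajb11 (0.113) and Hsp90b1 (0.239) were not, and all 10 had an unadjusted p under 0.05 (12.3%).

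Those 7 calls depend on how the arrays are counted. The RAW_FAC and FAC arrays of 1 number lay close together, as did the RAW and alone arrays, and the 6 pairs come from 3 replicate numbers. In another fit, the arrays of a number with equal iron were first averaged, which leaves 6 values per gene. The differences were the same, and their standard errors were 0.05 to 0.11. It called 0 of 10 members (smallest limma adjusted p = 0.181, Sdf2l1). Of all genes it called 5 higher, against 116 with the block and no averaging. With the number as a random term, 0 of 10 were called too (limma adjusted p 0.244 to 0.533), and 10 of all genes were called higher. That term takes 1 correlation, 0.218, for all genes, while the number's median share of the sum of squares was 65.3% in the members and 26.9% over all genes. It therefore leaves much of the members' difference between numbers in the error, and its count cannot decide on the 7 calls. With the block and 1 array left out, leaving out replicate 3 of RAW gave 6 calls, and replicate 3 of FAC gave 5. The count was 4 without RAW_FAC replicate 3, RAW replicate 1 or alone replicate 3, and 3 without RAW_FAC replicate 1. It was 2 without RAW_FAC replicate 2, RAW replicate 2, FAC replicate 1, FAC replicate 2 or alone replicate 1, and 1 without alone replicate 2. Creld2 was called in 12 of 12 such fits, Sdf2l1 in 11, Hspa5 in 6, Herpud1 in 4, Hyou1 and Pdia4 in 2 each, and Manf in 0. With a replicate number left out, 0 (without 1, and without 2) to 2 members (without 3) were called. Of all genes, 37 to 88 were called higher with the block and 1 array left out. With a number left out, 0 to 45 were. The fall in calls was thus not confined to the members.

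**Figure D4:**
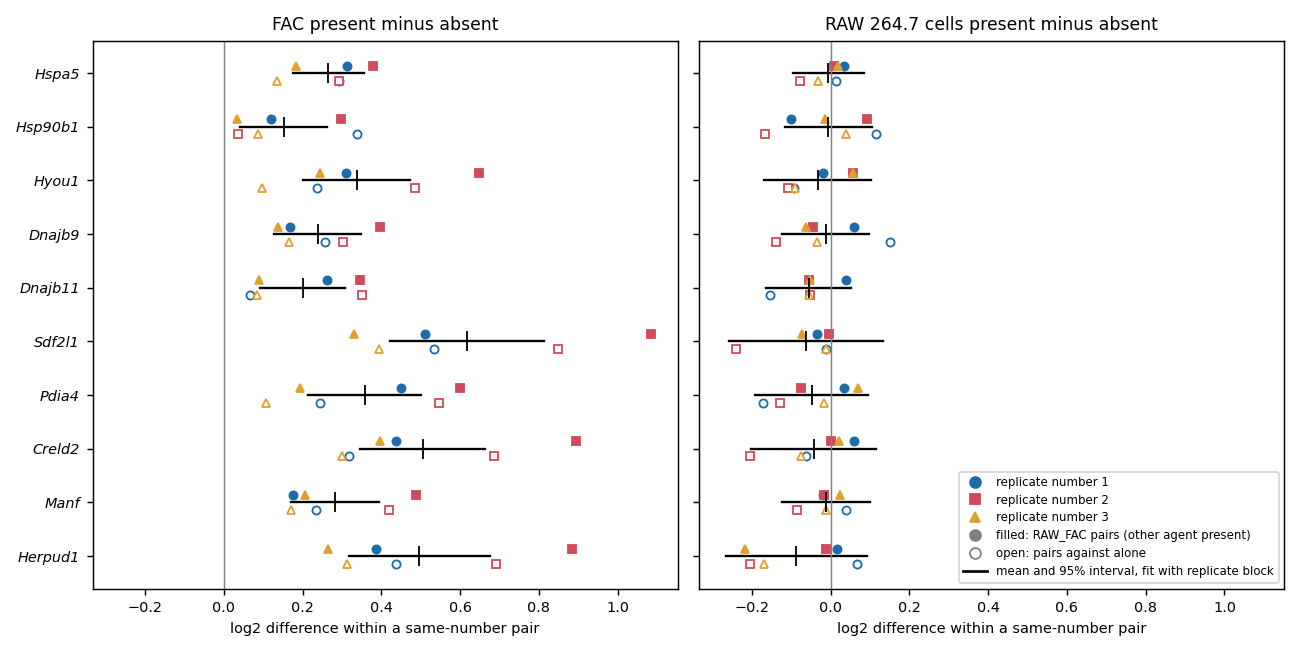
Log2 difference within each same-number pair (horizontal axis) for the 10 members (rows), for iron present minus absent on the left and macrophages present minus absent on the right, with filled points for RAW_FAC pairs, open points for pairs against alone, and bars for the mean and 95% interval with the replicate block. Every iron point lies above 0, and the macrophage points lie on both sides of 0 in each row but that of Sdf2l1, where all 6 are below 0.

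The iron difference was not of equal size in the 3 pairs. In the pair of replicate 2 the members' median was 0.54 for RAW_FAC minus RAW and 0.45 for FAC minus alone. In the pair of replicate 1 it was 0.31 for RAW_FAC minus RAW and 0.28 for FAC minus alone. In the pair of replicate 3 it was 0.20 for RAW_FAC minus RAW and 0.15 for FAC minus alone. Averaged over both comparisons, Sdf2l1 differed by 0.52, 0.97 and 0.36 in replicates 1, 2 and 3, and Creld2 by 0.38, 0.79 and 0.35. Hsp90b1 was the exception, with 0.23, 0.17 and 0.06. The pair of replicate 2 had the largest iron difference in both comparisons for 8 of 10 members (11.5% of genes). A test of iron by replicate number, chosen after these values were seen, called 0 of 10 members (0.121% of genes), with unadjusted p from 0.000952 (Sdf2l1) to 0.384 (Hsp90b1) and adjusted p of 0.163 or more in limma.

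The macrophage comparisons asked whether co-culture moved the same genes. In RAW against alone the 10 differences were small and below 0, from -0.11 (Creld2) to -0.004 (Hsp90b1), with a median of -0.09. There 0 of 10 members were above 0, beside 49.8% of genes. In RAW_FAC against FAC the differences ran from -0.07 (Herpud1) to 0.03 (Hyou1), with a median of -0.006, and were above 0 in 4 (53.9% of genes) and below 0 in 6. Hspa5 averaged 13.88 ± 0.29 in RAW_FAC against 13.86 ± 0.30 in FAC, and 13.59 ± 0.29 in RAW against 13.62 ± 0.33 in alone (SD, n = 3 arrays). In RAW against alone 5 members were lower in 3 of 3 pairs (16.3% of genes): Hyou1, Dnajb11, Sdf2l1, Pdia4 and Creld2. In RAW_FAC against FAC, Hspa5 and Creld2 were higher in 3 of 3 pairs (16.2%) and Sdf2l1 was lower in 3 of 3 (11.4%). Over both macrophage comparisons, 1 of 10 members, Sdf2l1, was lower in 6 of 6 pairs (2.8% of genes) and 0 were higher in 6 of 6 (3.09%). The number of members ordered this way is read against those shares only.

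Limma called 0 of 10 members in RAW against alone, without or with the block, in either direction (0% of genes each time), and none had an unadjusted p under 0.05 (3.81% of genes without and 6.13% with the block). The same held in RAW_FAC against FAC (0% called, 3.15% and 5.61% at the unadjusted p). In the mean of both comparisons the members' median was -0.04, against 0.005 over all genes, and 0 of 10 were called. There the fit called 0.011% of genes higher without and 0.055% with the block and 0% lower, and at an unadjusted p it held 3.94% and 7% of genes and 0 members. The 95% intervals with the block stayed within -0.37 to 0.19 in RAW against alone and -0.32 to 0.25 in RAW_FAC against FAC, with the widest ends from Sdf2l1 in the first and from Herpud1 and Creld2 in the second. The narrowest were those of Hspa5, -0.16 to 0.095 in RAW against alone and -0.11 to 0.15 in RAW_FAC against FAC, so the size of difference that 3 arrays per group could show was not the same for each gene.

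The interaction, the iron difference with macrophages minus that without, had a median of 0.05 over the members and ran from -0.008 (Dnajb9) to 0.14 (Creld2). It was called in 0 of 10 without or with the block (0% of genes in each direction), and 0 of 10 had an unadjusted p under 0.05 (2.97% and 4.34% of genes). It was above 0 in 8 of 10 (54.3% of genes). By same-number replicates it was above 0 in 3 of 3 for 4 members, Hspa5, Hyou1, Pdia4 and Creld2 (14.6%), and below 0 in 3 of 3 for 0 (11.3%). The 95% intervals with the block reached from -0.34 (Sdf2l1) to 0.46 (Creld2), and every one included 0. Placed in order, RAW_FAC and FAC were the 2 highest groups and alone and RAW the 2 lowest for all 10 members. Within each of these couples the difference was not called and its 95% interval with the block included 0. The share of all genes with this order of groups was not counted, so it is not read as a trait of the members.

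The further probe sets of the same genes bear on how far these values rest on 1 probe set. Of the 17 probe sets, 16 had a difference above 0 over both iron comparisons, beside 48.9% of genes. The share over all probe sets was not counted, and probe sets of the same gene are not separate observations. The second probe set of Hspa5 gave 0.36, that of Hsp90b1 0.27 and that of Herpud1 0.37, each higher in 6 of 6 pairs. The 2 further probe sets of Hyou1 gave 0.37 and 0.40, and another of Hspa5 gave 0.10, higher in 5 of 6 pairs. The exception was the second probe set of Pdia4, with -0.13, whose signal of 4.60 to 4.93 lay below the array medians on all 12 arrays. In a fit to all 34958 probe sets, 9 of the 17 were called with the block and 0 without it, where 203 and 0 of all probe sets were called higher or lower, and the F test of the replicate number called 15 of 17, where it called 3544 in all. The brighter probe set of Hsp90b1 differed by 0.15 ± 0.05 and its other by 0.27 ± 0.06 (SE with the block). For the macrophages, 2 of the 17 were above 0 in RAW against alone (49.8% of genes) and 6 in RAW_FAC against FAC (53.9%), and 0 were called. A further Hyou1 probe set, with a signal of 4.99 to 6.14, gave -0.25 and -0.17 in these comparisons, higher in 0 of 3 pairs each time. The second probe set of Pdia4 gave 0.13 in RAW against alone, higher in 3 of 3 pairs, and -0.01 in RAW_FAC against FAC.

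Other genes of the compartment were read from 6 lists, by the mean of the 2 iron comparisons. Without the block limma called 0 genes in each list, and all calls of list genes below, those of the PERK-ATF4 arm included, are with it, beside 0.638% of all genes called higher. Among 10 genes for the sensors and transcription factors, the median was 0.04 and 1 gene was called, Xbp1, whose mRNA the sensor Ern1 splices and which was higher by 0.28 ± 0.05 (adjusted p = 0.0364) and in 6 of 6 pairs. Its call was kept in 2 of 12 fits with 1 array left out and in 0 of 3 with a replicate number left out. The sensors themselves gave -0.03 (Ern1), 0.04 (Eif2ak3) and -0.05 (Atf6), and none was called. Among 14 disulfide isomerases and oxidases, the median was 0.12, 12 were above 0, 7 were higher in 6 of 6 pairs and 1 was called, Pdia5, an isomerase, at 0.25 ± 0.05 (0.0464), a call kept in 0 of 12 such fits and 0 of 3. Among 15 other co-chaperones and prolyl isomerases the median was 0.06, 14 were above 0, and 1 was called, Dnajc3, a J-domain partner of BiP that also restrains Eif2ak3, at 0.35 ± 0.06 (0.0363), a call kept in 2 of 12 and 1 of 3. With the number as a random term, or with pairs averaged over macrophages, none of these 3 genes was called.

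The degradation list had a median of 0.10 over 14 genes, with 12 above 0 and 5 higher in 6 of 6 pairs, and 0 called. Chosen after its values were seen, Syvn1, the ubiquitin ligase of that route, gave 0.32 and Sel1l, its partner, 0.30. The lectin chaperones and glucosidases had a median of 0.11 over 6 genes, with 0 called, and Calr, a lectin chaperone chosen in the same way, gave 0.22. The genes of translocation and signal peptide cleavage had a median of 0.08 over 14 genes, with 14 above 0 and 0 called. The cytosolic and mitochondrial chaperones, the folding machinery outside the compartment, had a median of 0.01 over 14 genes, with 9 above 0 and 0 called. The members' median of 0.31 is higher than that of each of these lists, a description that carries no test. The members and the lists were chosen with earlier results of these data known, so the choice may have shaped this order. By the F test of the replicate number, calls were made in 1 of 10 sensors and factors, 4 of 14 isomerases, 4 of 15 co-chaperones, 6 of 14 degradation genes, 1 of 6 lectin genes and 5 of 14 translocation genes, beside 10.6% of all genes.

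The PERK-ATF4 arm, the other output of the stress sensors, had a median of 0.15 over 11 genes, with 8 above 0. Trib3, a pseudokinase induced by ATF4 and CHOP, was called with the block at 0.47 ± 0.07 (adjusted p = 0.0179), which was kept in 7 of 12 fits with 1 array left out, in 0 of 3 with a number left out and not with the random term or averaged pairs. Atf4 gave 0.05 and Ddit3, which encodes CHOP, 0.37 (0.118). The number was called in 6 of these 11, and replicate 2 exceeded replicate 1 by 1.21 in Ddit3 and 1.20 in Trib3.

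**Figure D5:**
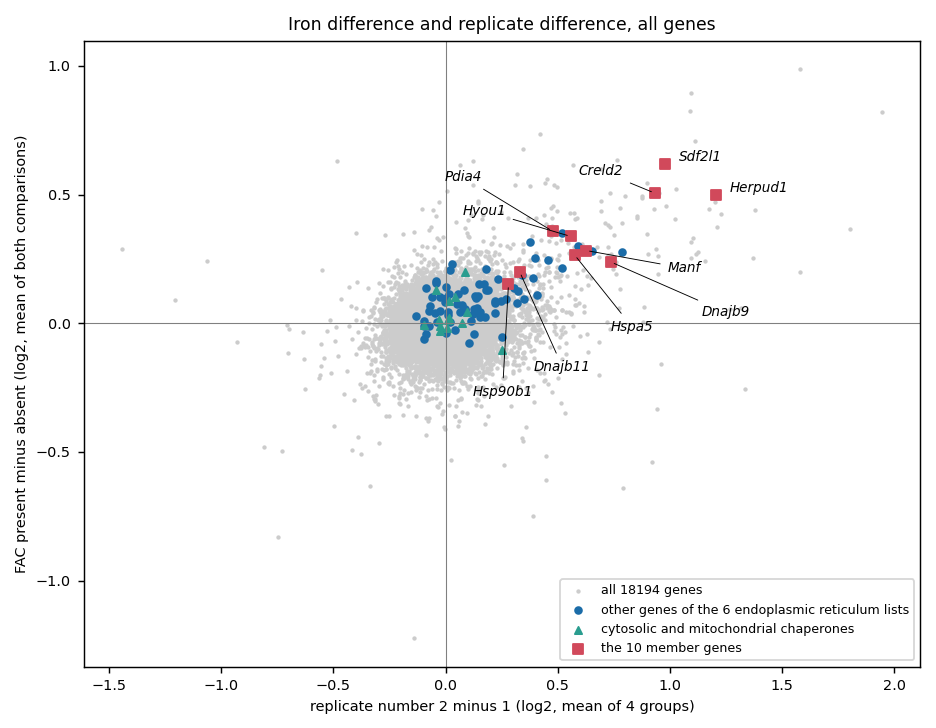
Each gene's iron difference (vertical axis, log2, mean of both comparisons) against its difference between replicates 2 and 1 (horizontal axis, log2, mean of 4 groups), for all 18194 genes, the other genes of the 6 endoplasmic reticulum lists, the cytosolic and mitochondrial chaperones and the 10 members. The members lie right of and above most genes, from 0.28 and 0.15 (Hsp90b1) to 1.20 and 0.50 (Herpud1), and the cytosolic and mitochondrial chaperones lie around the origin.

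The 10 other genes most like the members' mean over the 12 arrays, by Pearson correlation, were Pdia6 (0.984), Slc35b1 (0.977), Sqor (0.974), Taldo1 (0.973), Nars (0.972), Serp1 (0.972), Ostc (0.971), Acot2 (0.971), Nudt7 (0.970) and Dnajc3 (0.969). Pdia6 is a disulfide isomerase of the same compartment, and its iron difference was 0.28 with an adjusted p of 0.0729 in limma with the block. All 10 had the same order of replicate numbers, 1 lowest and 2 highest. After the group and number terms were removed, the correlation stayed at 0.94 for Pdia6, 0.92 for Ostc, a subunit of the oligosaccharyltransferase, and 0.92 for Dnajc3, while it was 0.45 for Nudt7 and 0.59 for Taldo1. Sqor, a mitochondrial enzyme of sulfide oxidation, was at 0.74 and had an iron difference of 0.42.

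Genes that share the promoter elements printed above were read in the same way. Of the other genes with ERSE in their window, 17 were on the array, with a median iron difference of 0.05, 15 above 0 and 1 called with the block, Dnajc3, whose call was lost in most fits that left out an array, as given above. The 4 that were higher in 6 of 6 pairs were Dnajc3 (0.35), Syvn1 (0.32), Pdia6 (0.28) and Calr (0.22). Of the other genes with ERSE-II, 7 were on the array, with a median of 0.04, 4 above 0 and 0 called. Among the members the 5 with either element differed by 0.15 to 0.51, and Sdf2l1, Pdia4 and Dnajb9, with neither in the window, by 0.62, 0.36 and 0.24.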

How the data were processed

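Total RNA of BNL CL.2 cells, purified with a Qiagen RNeasy mini kit per the labels' protocols, was hybridised to 12 Affymetrix mouse arrays. The authors deposited log2 signals per probe set. The submitters' processing notes name RMA and affy as the tools behind them. RMA corrects background, sets all arrays to 1 distribution and summarises probes by median polish, which would remove a shift common to all genes. For tool versions and the genome build, the sources used here give nothing. No depth exists for arrays, and 3 arrays per group limit the precision. Nothing in the labels says that replicates were separate cultures, so p-values measure only the spread between these arrays, which may be technical.

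Of 45101 probe sets, 34958 had 1 gene symbol in GEO's platform annotation, 932 had several and 9211 had none. Each gene was read from its brightest probe set by the mean of the 12 arrays, a choice made for 9012 of 18194 genes. limma 3.58.1 in R 4.3.3 fitted a mean per group to all 12 arrays and all genes (8 residual degrees of freedom), and p-values were adjusted by Benjamini-Hochberg. The same fit with the replicate number as a block had 6. Tables were handled with pandas 2.3.3.

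The replicate numbers come from the sample titles. Over all genes, deviations from the group means of arrays with the same number correlated at 0.263 to 0.529 (18 pairs, median 0.327). For different numbers the range was -0.349 to -0.015 (36 pairs, median -0.174), and 12 of 12 arrays were closest to an array of their own number. The deviations of a group sum to 0, so positive same-number values bring negative ones for different numbers on average. The negative range is therefore not separate evidence. On the same-number values, the numbers were treated as pairing the arrays in the fits with the block and in the same-number pairs. The main fit, without the block, ignores them.

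The members, the gene lists and the marker lists were chosen with earlier results of these data known. Named in the text were the members, list genes past the threshold in any comparison (at most 4 per list by p), Xbp1, Atf6, Ern1, Eif2ak3, Atf4 and Ddit3, the 10 genes most correlated with the members' mean, Tfrc, and marker genes. Syvn1, Sel1l and Calr lie outside this rule and were added with their values known. Alternatives were the block, a random block, array weights, fits to the compared groups only, leaving out low genes, centring of arrays, the mean of a gene's probe sets, a trended robust prior and leaving out arrays or replicate numbers.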

Additional observations from a re-analysis of the deposited data

How the results depend on the processing

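Over 35 alternative settings, the members' differences stayed above 0 in 350 of 350 values in each of FAC against alone, RAW_FAC against RAW, RAW_FAC against alone and the mean of the iron comparisons. Many of these values repeat the main one. All groups hold the same replicate numbers, so some settings return the same difference by design. Those are the block, the random block, the compared groups only, leaving out low genes, the trended robust prior and averaged pairs. Without the block, leaving out an array outside the groups compared returns it too. The number of members called for the mean iron difference was 0, and 7 with the replicate block. It was 0 with the random block, which takes 1 correlation of 0.218 for all genes. With iron pairs averaged over macrophages, an alternative chosen after seeing the data, it was 0. With arrays or a replicate number left out it was 0 to 6. The block changed no other count of members called in a comparison of groups. The number of genes called higher for the mean iron difference was 0, but 116 with the block, 10 with the random block and 5 when averaged, and those called lower were 1, 28, 4 and 1. With the block, 4 genes were called higher and 2 lower in FAC against alone, 11 and 3 in RAW_FAC against RAW, 26 and 11 in RAW_FAC against alone (2 and 2 with the random block), and 10 higher for the mean macrophage difference (4 with the random block), which called 2 without it. The F test of the replicate number called 1926 genes, 3245 with a trended robust prior and 3399 among the 9097 genes kept when low genes were left out. When 1 array was left out it called 945 to 1431 genes and 9 to 10 members. The 116 genes with the block became 37 to 88 when 1 array was left out, 1 without replicate number 1, 0 without 2 and 45 without 3.

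Without pairing, leaving out 1 array makes the groups unequal in replicate numbers, so differences between the numbers enter. The members' median then ran from 0.11 to 0.45 in FAC against alone, 0.16 to 0.53 in RAW_FAC against RAW, 0.086 to 0.46 in RAW_FAC against alone, 0.22 to 0.41 for the mean iron difference, -0.23 to 0.11 in RAW against alone, -0.18 to 0.19 in RAW_FAC against FAC, -0.12 to 0.071 for the mean macrophage difference and -0.14 to 0.26 for the interaction. With the block the first 4 ran from 0.21 to 0.33, 0.29 to 0.39, 0.23 to 0.32 and 0.27 to 0.34. The macrophage differences of single members turned sign: in RAW against alone, Creld2 ran from -0.37 to 0.11, Dnajb11 -0.15 to 0.011, Dnajb9 -0.21 to 0.20, Herpud1 -0.46 to 0.16, Hsp90b1 -0.14 to 0.083, Hspa5 -0.22 to 0.13, Hyou1 -0.26 to 0.063, Manf -0.20 to 0.13, Pdia4 -0.23 to 0.054 and Sdf2l1 -0.39 to 0.17. In RAW_FAC against FAC, Creld2 ran from -0.29 to 0.32, Dnajb11 -0.14 to 0.097, Dnajb9 -0.24 to 0.22, Herpud1 -0.44 to 0.26, Hsp90b1 -0.086 to 0.087, Hspa5 -0.14 to 0.18, Hyou1 -0.15 to 0.24, Manf -0.20 to 0.20, Pdia4 -0.15 to 0.18 and Sdf2l1 -0.37 to 0.29. The mean iron difference of the sensors ran from -0.098 to 0.026 in Atf6, -0.021 to 0.099 in Eif2ak3 and -0.064 to 0.016 in Ern1. With the block and a replicate number left out it ran from -0.13 to 0.077 in Atf6, -0.080 to 0.11 in Eif2ak3 and -0.11 to 0.060 in Ern1.

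Other settings turned values near 0. With array weights the median of RAW_FAC against FAC was -0.062, Hspa5 -0.033, Hyou1 -0.027, Pdia4 -0.055 and Creld2 -0.075. With arrays centred on the median, Hsp90b1 was 0.0027 and Manf 0.0065 there. With the mean of all probe sets, Hspa5 was -0.049, Hyou1 -0.0020 and Pdia4 -0.0011 there, Pdia4 was 0.014 in RAW against alone, and the mean iron difference was 0.035 in Atf6 and 0.0086 in Ern1. The cause was not tested, and no member's macrophage difference was called under any of these settings.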
